A study of Oryza sativa with 24 samples.

Results

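A set of 22 rice loci, of 55801 listed, was switched on in one group of flag leaf libraries and off in another. The loci were selected on their FPKM values (sequenced fragments scaled to gene length and library size). A group counted as on for a locus when both of its libraries held at least 5 FPKM, and as off when both lay below 0.1 FPKM. A locus belonged to the set when at least one of the 6 groups was on and at least one other was off. These were 0.0394% of all listed loci, against 11506 loci that were on in at least one group. All 12 libraries entered the choice, so the levels of the 22 loci are given as a description, with no test.

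The material was the hybrid Chunyou84 (CY84), a cross of the japonica male-sterile mother Chunjiang 16 A with the indica-japonica intermediate father C84, and its derivative Fix, made in the same hybrid background. In Fix, the genes REC8, PAIR1 and OSD1 are edited, so that meiosis becomes a division like mitosis, and so is MTL, whose loss lets an egg develop without a paternal genome. Fix therefore sets clonal seed. The groups were CY84, the first edited plants (Fix T0) and their diploid descendants over seed, Fix T1, Fix T2, Fix T3 and Fix T4, all sampled as flag leaves at heading from field-grown plants, with 2 RNA-seq libraries per group. CY84 and Fix T0 were carried over by their roots, and Fix T1 to Fix T4 were raised from seed. The way the plants were kept can therefore not be told apart from the step between Fix T0 and its seed progeny. Whether replicates came from separate plants is not stated, so the spread between them may be technical.

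A gene that is read in one plant and silent in its clone can differ in its DNA, in DNA methylation or in chromatin packing. DNA methylation and chromatin packing can both pass through cell divisions without a change of sequence. The embryo of a clonal seed forms without the reshuffling of parental chromosomes in meiosis and without a paternal genome. In a hybrid, a locus can also be present or active on the chromosome of only one parent, and an FPKM value adds both parental copies. In bulk leaf RNA, fewer cells of a type and less RNA per cell cannot be told apart. The table lists MSU locus identifiers without gene names, and 0 of the 22 identifiers appeared in the annotation table used here, so no names or functions are given to these loci.

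Between 22097 and 23731 loci had a value above 0 in a library. The relative sequencing depth, taken from the commonest ratio between low values of a pair of libraries, ran from 0.674 in Fix T3 replicate 2 to 1 in CY84 replicate 1. In the libraries other than CY84 replicate 1, the reference, 1.19% to 2.22% of the low loci held that ratio, so these depths are approximate. Absolute depth is unknown. Leaf identity was clear from genes paired with identifiers by hand: the small subunit of Rubisco and the chlorophyll a/b binding proteins summed to between 23123 and 56791 FPKM over 4 loci. The anther regulators TDR and EAT1 summed to at most 0.806 FPKM, with EAT1 listed at 0 throughout, and 2 seed glutelin loci to at most 1.88 FPKM. Of the root genes, RCc3 was listed at 0 in all libraries and the silicon transporter LSI1 lay between 18.6 and 72.8 FPKM. The lowest LSI1 values were those of CY84, and the part of any other tissue in the results was not tested. REC8 and PAIR1 summed to at most 0.103 FPKM, so they do not check the edits in this tissue.

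**Figure D1:**
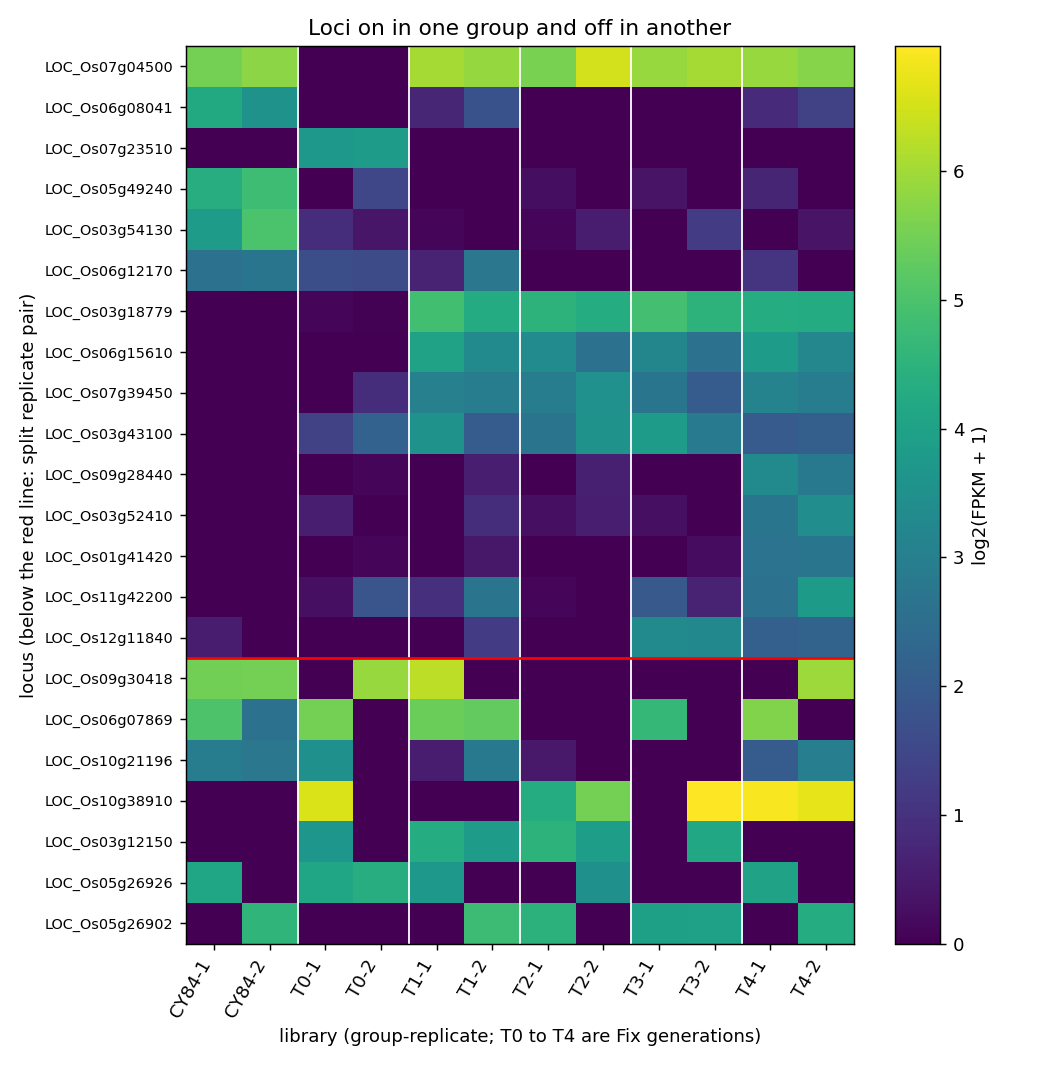
Levels of the 22 loci as log2(FPKM + 1), 1 column per library and 1 row per locus, with white lines between the groups. The 7 loci below the red line have at least one replicate pair with one library at 5 FPKM or more and the other below 0.1, and the 15 above it have none.

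CY84 was on at 8 of the 22 loci and off at 11, and at the other 3 it was neither. In Fix T4, the last generation, 9 loci were on and 2 were off, against 2 on and 8 off in Fix T0. Of the 19 loci with a clear state in CY84, Fix T4 shared that state at 3 and held the opposite state at 8. All 8 opposite ones were off in CY84 and on in Fix T4. At the 8 loci on in CY84, Fix T4 was on at 1, off at 0 and neither at 7. Neither did not mean halfway. The Fix T4 libraries held 0 and 60.3 FPKM at LOC_Os09g30418, and 48.9 and 0 FPKM at LOC_Os06g07869. They held 0 and 0.299 FPKM at LOC_Os03g54130, 0.661 and 0 FPKM at LOC_Os05g49240, and 1.06 and 0 FPKM at LOC_Os06g12170. LOC_Os06g08041 had 0.812 and 1.59 FPKM, and LOC_Os10g21196 had 3.11 and 6.93 FPKM. With the libraries rescaled by median-of-ratios factors the shared and opposite states were at 3 and 4 loci, and with on set at 10 FPKM at 3 and 2. Without Fix T0 replicate 2 they were at 10 and 8. The 3 loci shared with CY84 had all switched fully and returned. The rule fixes this for any member with the same clear state in CY84 and Fix T4, so it is no separate result. Of the 3, 1 locus on in CY84 was off in a Fix generation and on in a later one. The other 2 were off in CY84, on in a Fix generation and off in a later one. The 3 loci were LOC_Os07g04500, LOC_Os07g23510 and LOC_Os03g12150, and the last of them also switched within replicate pairs.

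Full switches from one group to the next were few. From CY84 to Fix T0, 2 loci went off and 1 came on. From Fix T0 to Fix T1, 3 came on and 1 went off. From Fix T1 to Fix T2, 1 locus changed each way, and from Fix T2 to Fix T3 and from Fix T3 to Fix T4, 1 came on and 0 went off. The step from Fix T0 to its seed progeny thus held 4 of the 11 switches. It is the step at which the way of keeping the plants changed as well. Its switches at LOC_Os07g04500 and LOC_Os07g23510 undid those of the step before. The members were chosen on these values, and the counts are too small to set the steps apart.

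The clearest loss and return was that of LOC_Os07g04500 on chromosome 7. The CY84 libraries held 45.1 and 53.6 FPKM, and the pair from Fix T0 was listed at 0. Fix T1 held 64.5 and 57.2 FPKM, Fix T2 46.7 and 89.0 FPKM, Fix T3 58.7 and 64.2 FPKM and Fix T4 58.6 and 51.6 FPKM. The 8 seed generation libraries thus overlapped with or lay above those of CY84, and Fix T0 was the one group listed at 0. LOC_Os07g23510, on the same chromosome and 1637 listed loci further on, showed the reverse pattern. Fix T0 held 12.2 and 13.3 FPKM, and the other 10 libraries were listed at 0. At both loci the seed generations were in the state of CY84 and not in that of the Fix T0 libraries.

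A neighbour of LOC_Os07g04500 was low in Fix T0 too. LOC_Os07g04450, whose identifier lies 5 listed loci before it, did not meet the rule, so it could be tested. It came close: with off set below 0.5 FPKM it would be a member, and members were left out of the test. In FPKM, CY84 held 7.43 and 8.29, Fix T0 0 and 0.346, Fix T1 3.22 and 5.45, Fix T2 6.85 and 2.84, Fix T3 4.55 and 6.39, and Fix T4 11.5 and 10.2. Both Fix T0 libraries lay below all 10 others. It fell in Fix T0 against CY84 by 2.93 on the log2(FPKM + 1) scale (SE 0.37, limma adjusted p = 0.00606 over 18871 loci). In Fix T1, T2, T3 and T4 against CY84 the limma adjusted p was 0.546, 0.259, 0.451 and 0.849. Leaving out any one of the 4 libraries of the compared groups ended the call in Fix T0, in fits where that group had 1 library, assumed to vary like the others. The log2 difference was then between -3.15 and -2.72. The limma adjusted p was then 0.0798 and 0.150 when the first or second CY84 library was dropped, and 0.191 and 0.0611 when the first or second one of Fix T0 was. It did not pass with no filter on low loci either.

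Within 20 listed loci on each side of LOC_Os07g04500, 8 loci including itself reached 1 FPKM in a library. At 2 of them, LOC_Os07g04450 and LOC_Os07g04500, Fix T0 lay below all other libraries. LOC_Os07g04500 was chosen on these values, so LOC_Os07g04450 alone adds to it. The share of all loci with Fix T0 lowest was not counted. No locus between these 2 reached 1 FPKM. LOC_Os07g04530, the next one on the other side, averaged 6.04 FPKM in CY84 against 4.67 FPKM for Fix T0 (limma log2 difference -0.31, SE 0.38, adjusted p = 1.00).

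**Figure D2:**
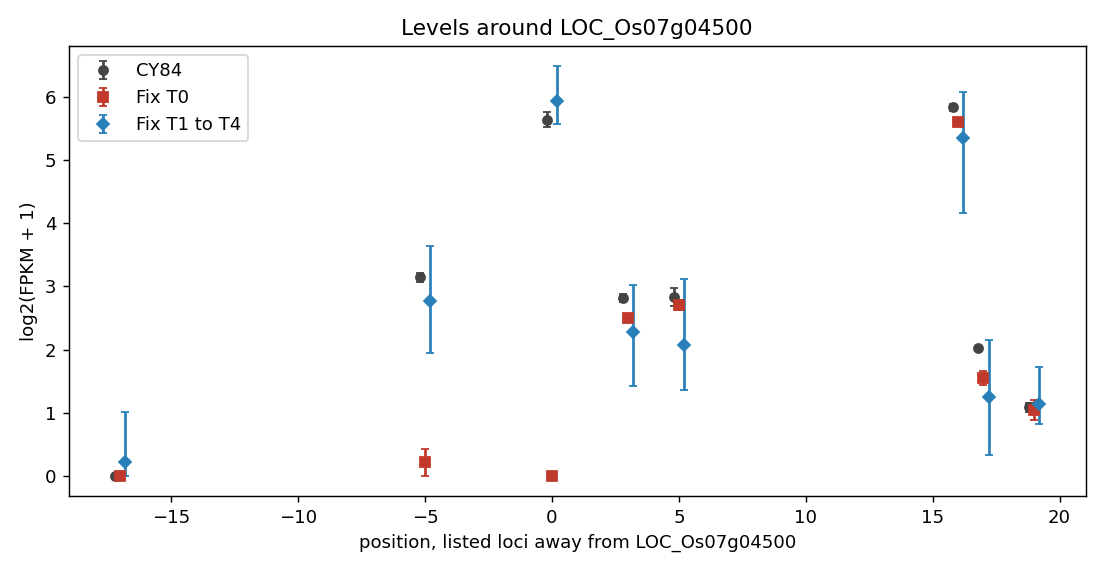
Mean log2(FPKM + 1) of CY84, Fix T0 and Fix T1 to Fix T4 at the 8 loci with at least 1 FPKM in a library, by their distance from LOC_Os07g04500 in listed loci. Bars run from the lowest to the highest library. Fix T0 lies apart from all other libraries at LOC_Os07g04500, which was chosen on its values, and at LOC_Os07g04450.

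The nearest tested locus on each side was examined for every locus that was on in one and off in the other of CY84 and a Fix generation. Flanking loci were chosen by position and not by level. Of them, LOC_Os03g12160 and LOC_Os10g38900 mirror the member beside them, as described further on, so their values are not independent of the choice of members. For Fix T0 there were 3 such switched loci with 6 flanking loci, of which 1 passed, LOC_Os07g04450, where 0.0901% of all tested loci passed. In Fix T1, 0 of 12 flanking loci passed with limma (2 at an unadjusted p under 0.05), beside 0.503% of all loci. In Fix T2, 0 of 20 passed (7 unadjusted), beside 0.159% of all loci. Fix T3 gave 0 of 14 (4 unadjusted), beside 1.77%, and Fix T4 gave 0 of 16 (4 unadjusted), beside 1.88%. At the unadjusted threshold 3.87%, 9.56%, 25.6%, 22.3% and 10.3% of all loci were found in Fix T0, T1, T2, T3 and T4. These comparisons share the CY84 libraries, and flanking loci recur among them. Without the mirroring loci, 1 of 6, 0 of 11, 0 of 18, 0 of 14 and 0 of 15 flanking loci passed in Fix T0, T1, T2, T3 and T4 (limma, with 1, 1, 6, 4 and 3 at an unadjusted p under 0.05).

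The size of change at the flanking loci was above that of all loci in Fix T0, T1 and T4 and below it in Fix T2 and T3. The median absolute log2 difference was 0.32 in Fix T0, 0.58 in Fix T1, 0.33 in Fix T2, 0.28 in Fix T3 and 0.30 in Fix T4, against 0.20, 0.29, 0.45, 0.44 and 0.25 over all tested loci. The highest value was that of a mirroring locus in Fix T1 (2.66), Fix T2 (2.91) and Fix T4 (4.07), and without these loci it was 0.75, 1.25 and 0.92. A switched locus could sit directly beside one present in all libraries. LOC_Os03g18770, directly before LOC_Os03g18779, ranged from 47.5 to 87.4 FPKM over the 12 libraries, and LOC_Os07g23520, directly after LOC_Os07g23510, from 10.9 to 24.4 FPKM.

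LOC_Os03g18779, LOC_Os06g15610 and LOC_Os07g39450 were off or nearly off in both groups carried over by their roots and present in all libraries raised from seed. For LOC_Os03g18779 the CY84 pair was listed at 0, and Fix T0 held 0.0716 and 0.0349 FPKM. Fix T1 held 28.2 and 18.7 FPKM, Fix T2 21.8 and 19.0 FPKM, Fix T3 28.6 and 21.5 FPKM and Fix T4 18.9 and 18.4 FPKM. The 8 seed generation values stayed within a narrow band from Fix T1 on. LOC_Os06g15610 was listed at 0 in CY84 and Fix T0, and its seed generation values lay between 5.10 FPKM in Fix T3 replicate 2 and 15.1 FPKM in Fix T1 replicate 1. The next listed locus, LOC_Os06g15620, was listed at 0 in CY84 and Fix T0 and also in Fix T1 replicate 1 and Fix T3 replicate 2, and lay between 0.276 and 1.20 FPKM in the other 6 libraries. For LOC_Os07g39450 the CY84 pair was listed at 0, and Fix T0 held 0 and 0.874 FPKM. From Fix T1 to Fix T4 it lay between 3.09 FPKM in Fix T3 replicate 2 and 10.6 FPKM in Fix T2 replicate 2. At none of these 3 loci did a seed generation library fall to the CY84 level. They were grouped on these same values, and how many of all loci show such a gap was not counted.

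LOC_Os03g43100 already had a low level in Fix T0 and was on in Fix T2 and Fix T3. The CY84 pair was listed at 0, Fix T0 held 1.59 and 3.53 FPKM, Fix T1 10.8 and 3.09 FPKM, and Fix T2 5.47 and 10.7 FPKM. Fix T3 held 13.5 and 6.25 FPKM and Fix T4 3.03 and 3.35 FPKM. All 10 Fix libraries exceeded both CY84 libraries, and those of Fix T0 and Fix T4 lay below all 4 of Fix T2 and Fix T3. Fix T1, at 10.8 and 3.09 FPKM, overlapped with both of these sets. The locus was chosen on these values, so nothing is read from the gaps.

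**Figure D3:**
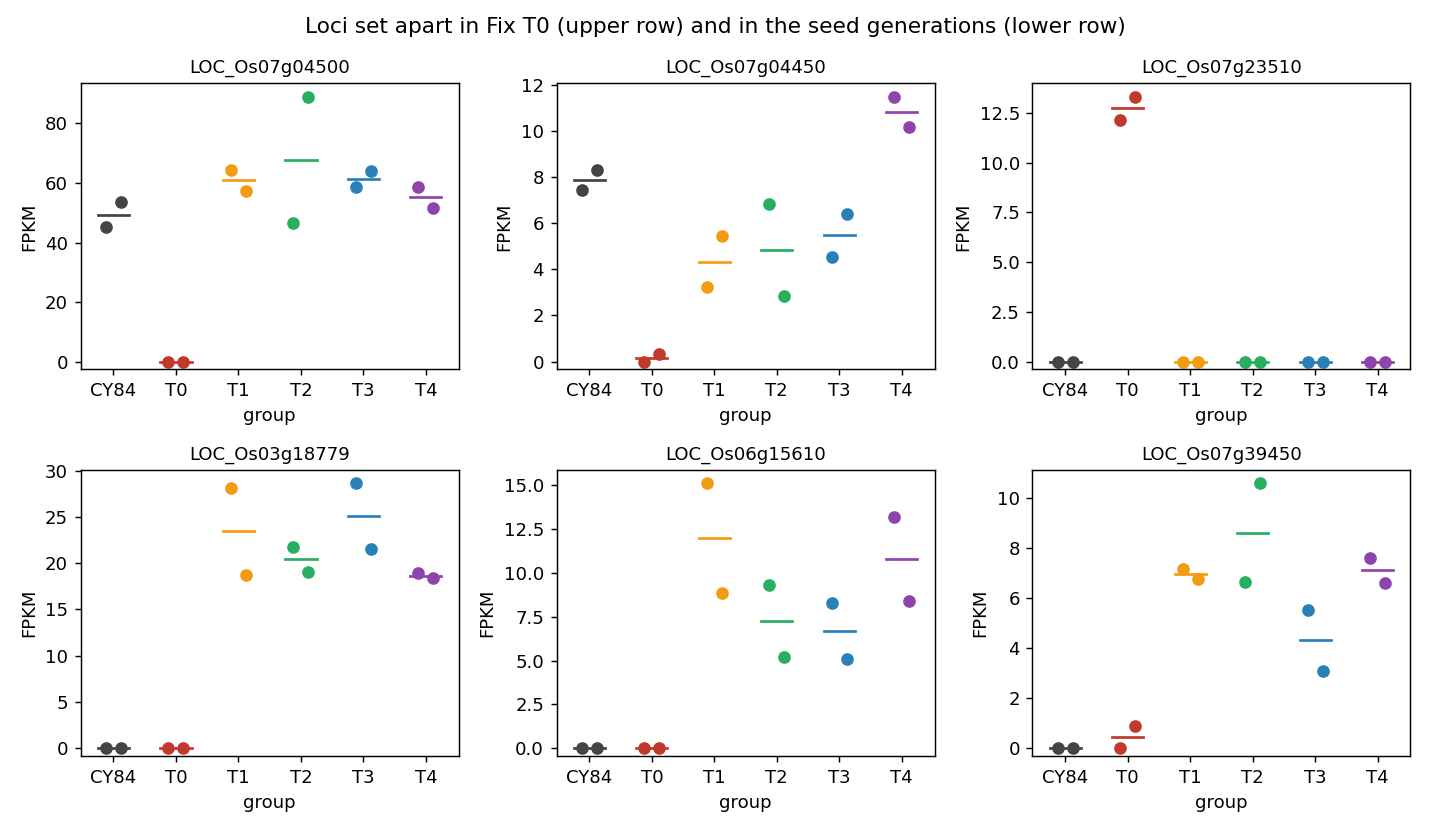
FPKM by group for LOC_Os07g04500, its neighbour LOC_Os07g04450 and LOC_Os07g23510 (upper row), and for LOC_Os03g18779, LOC_Os06g15610 and LOC_Os07g39450 (lower row). Each point is a library and each short line the mean of the 2 libraries; the upper loci set Fix T0 apart, and the lower ones lie at 0 or below 1 FPKM in CY84 and Fix T0 and above 3 FPKM in every seed generation library.

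A group of 4 loci was on in CY84 and stayed low in nearly all Fix libraries. For LOC_Os03g54130 CY84 held 13.3 and 30.6 FPKM, and the highest of the 10 Fix libraries, Fix T3 replicate 2, held 1.37 FPKM. Its Fix T1 libraries, at 0.0819 and 0 FPKM, brought it just inside the off limit. For LOC_Os05g49240 CY84 held 19.4 and 26.8 FPKM, and the highest Fix library, Fix T0 replicate 2, held 1.81 FPKM. For LOC_Os06g08041 CY84 held 17.7 and 10.9 FPKM, Fix T1 0.685 and 2.39 FPKM and Fix T4 0.812 and 1.59 FPKM, and the 6 libraries of Fix T0, T2 and T3 were listed at 0. At these 3 loci the Fix libraries did not overlap with CY84 in any generation. The rule used these values, and the share of all loci with such a gap was not counted. LOC_Os06g08041 lies in a stretch of loci with parallel values, described further on.

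LOC_Os06g12170, the fourth, lay close to the on limit. CY84 held 5.13 and 5.52 FPKM, Fix T0 2.20 and 2.02 FPKM, and Fix T1 0.579 and 5.81 FPKM. Fix T2 and Fix T3 were listed at 0 in all 4 libraries, and Fix T4 had 1.06 and 0 FPKM. Fix T1 replicate 2 exceeded both CY84 libraries, so the groups overlapped there.

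Another 4 loci were off in CY84 and reached the on state in Fix T4 alone. LOC_Os01g41420 was listed at 0 in CY84, had at most 0.373 FPKM in Fix T0 to Fix T3, and stood at 5.28 and 5.51 FPKM in Fix T4. LOC_Os09g28440 had at most 0.515 FPKM before Fix T4 and 8.89 and 6.07 FPKM in it. LOC_Os03g52410 had at most 0.892 FPKM before and 5.54 and 9.63 FPKM in Fix T4. At these 3 loci the 2 Fix T4 libraries lay above the other 10, and the share of all loci where they did was not counted. LOC_Os11g42200 was less distinct, with 5.20 and 12.8 FPKM in Fix T4 beside 5.40 FPKM in Fix T1 replicate 2 and 2.87 FPKM in Fix T3 replicate 1. On rescaling, all 4 of these loci and LOC_Os06g12170 dropped out of the set, and 17 loci were left.

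LOC_Os12g11840 was on in Fix T3 alone. In FPKM, CY84 held 0.438 and 0, Fix T1 0 and 1.37, Fix T3 8.98 and 8.58, and Fix T4 3.43 and 3.65, while the 4 libraries of Fix T0 and Fix T2 were listed at 0. The Fix T3 libraries were the highest, and those of Fix T4 were next.

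**Figure D4:**
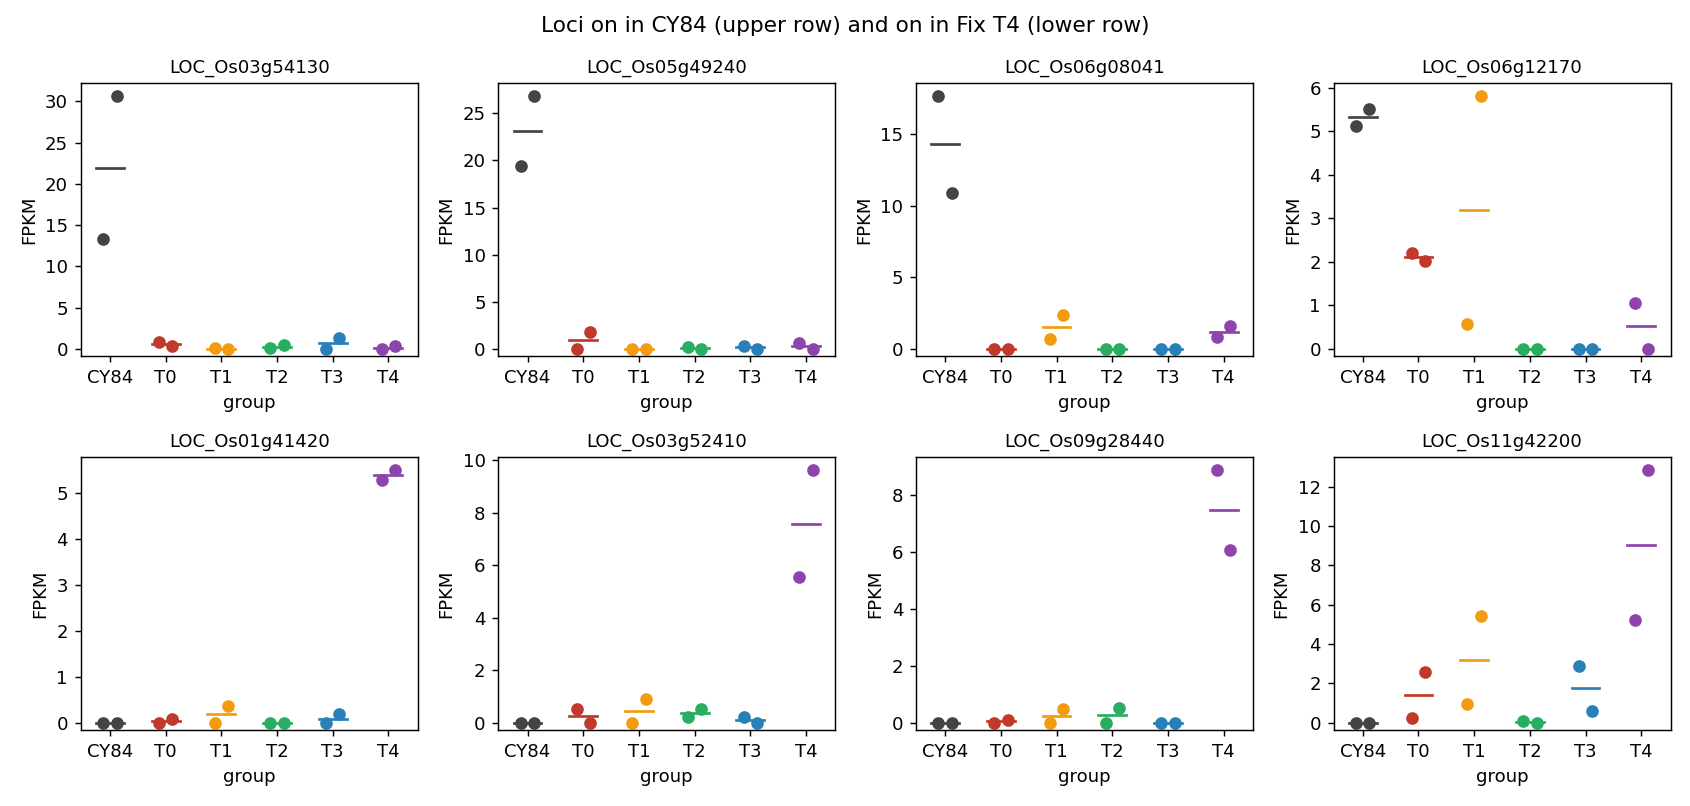
FPKM by group for 4 loci on in CY84 (upper row) and 4 loci on in Fix T4 (lower row), with 1 point per library and a line at the mean of 2. In the upper row LOC_Os06g12170 is the one locus where a Fix library, at 5.81 FPKM, exceeds CY84, and in the lower row LOC_Os11g42200 is the one where an earlier library, at 5.40 FPKM, exceeds a Fix T4 library.

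The other 7 loci switched between replicates of the same group. A split pair, with one library at 5 FPKM or more and the other below 0.1 FPKM, occurred at 7 of the 22 loci, and at 0.422% of the 13025 loci that reached 5 FPKM in a library. The choice of the 22 used the same values, so nothing is read from the difference between these shares. There were 19 split pairs over these 7 loci, 5 of them in Fix T0, 4 in Fix T4, 3 each in Fix T1 and Fix T3, and 2 each in CY84 and Fix T2. At these loci the replicates of one group could differ by as much as the on and off states do.

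LOC_Os09g30418 is the plainest of them. In FPKM, CY84 held 44.0 and 44.8, Fix T0 0 and 58.2, Fix T1 75.9 and 0, and Fix T4 0 and 60.3, while the 4 libraries of Fix T2 and Fix T3 were listed at 0. It took only 2 kinds of value, listed at 0 or above 40 FPKM. For LOC_Os06g07869, in FPKM, CY84 held 31.7 and 5.17, Fix T0 45.1 and 0, Fix T1 41.4 and 38.1, Fix T2 0 and 0, Fix T3 24.1 and 0, and Fix T4 48.9 and 0. In Fix T0, Fix T3 and Fix T4 one replicate was high and the other was listed at 0. For LOC_Os10g21196, in FPKM, CY84 held 6.81 and 5.77, Fix T0 10.3 and 0, Fix T1 0.443 and 5.99, Fix T2 0.398 and 0, Fix T3 0 and 0, and Fix T4 3.11 and 6.93. Its split pair was that of Fix T0.

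For 4 of the 7, an adjacent locus took the opposite value in most libraries. This was looked for after the values had been seen, among neighbours within 5 listed loci that reached 1 FPKM in a library. Of 99 such pairs of a member and a neighbour, 4 had a Pearson r of log2(FPKM + 1) of at most -0.8 over the 12 libraries, and all 4 neighbours were directly adjacent. They are 3 distinct pairs of loci, since one pair consists of 2 members and is counted from each. Among all 63563 such pairs around loci that reached 5 FPKM, 0.452% did. The members were chosen for wide swings in these same values, so nothing is read from the difference between these shares. The libraries of a pair are the same, and no p is given.

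LOC_Os05g26902 and LOC_Os05g26926 are adjacent, both belong to the 22, and exactly one of them was above 0 in every library (r = -0.99). For LOC_Os05g26902, in FPKM, CY84 held 0 and 22.7, Fix T0 0 and 0, Fix T1 0 and 26.6, Fix T2 21.2 and 0, Fix T3 14.6 and 14.8, and Fix T4 0 and 19.0. LOC_Os05g26926 filled the 6 empty places, with CY84 at 16.3 and 0, Fix T0 at 16.3 and 19.4, Fix T1 at 12.2 and 0, Fix T2 at 0 and 10.2, Fix T3 at 0 and 0, and Fix T4 at 15.3 and 0 FPKM. Their sum ran from 10.2 to 26.6 FPKM, with a coefficient of variation of 26.6% over the libraries, against 109% for each alone. The 4 split pairs of each locus were the same 4 groups.

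LOC_Os03g12150 and LOC_Os03g12160 also traded places (r = -0.99). LOC_Os03g12150 was listed at 0 in both CY84 libraries, in Fix T0 replicate 2, in Fix T3 replicate 1 and in both Fix T4 libraries, and had 11.7 to 21.8 FPKM in the other 6. LOC_Os03g12160 had 7.02 to 9.97 FPKM in the first 6 libraries and 0.283 to 1.35 FPKM in the others. The 2 sets of libraries did not overlap at either locus, and both sets held libraries of Fix T0 and Fix T3. Their sum ran from 7.02 to 22.3 FPKM.

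LOC_Os10g38910 and LOC_Os10g38900 formed the third combination (r = -0.81). For LOC_Os10g38910, in FPKM, Fix T0 held 95.3 and 0, Fix T2 18.8 and 44.3, Fix T3 0 and 124, and Fix T4 118 and 104, while the 4 libraries of CY84 and Fix T1 were listed at 0. LOC_Os10g38900 had 1.81 FPKM in Fix T0 replicate 1, 1.66 FPKM in Fix T3 replicate 2, and 1.95 and 2.19 FPKM in Fix T4, and at least 30.4 FPKM in the other 8 libraries. Fix T2 was the one group whose libraries held over 10 FPKM of both, with LOC_Os10g38900 at 62.2 and 46.3 FPKM. Their sum ran from 30.4 FPKM in Fix T1 replicate 1 to 126 FPKM in Fix T3 replicate 2, so it was not level across libraries. Whether fragments were divided between like or overlapping loci was not tested, and the calls of these 4 loci are uncertain for that reason.

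**Figure D5:**
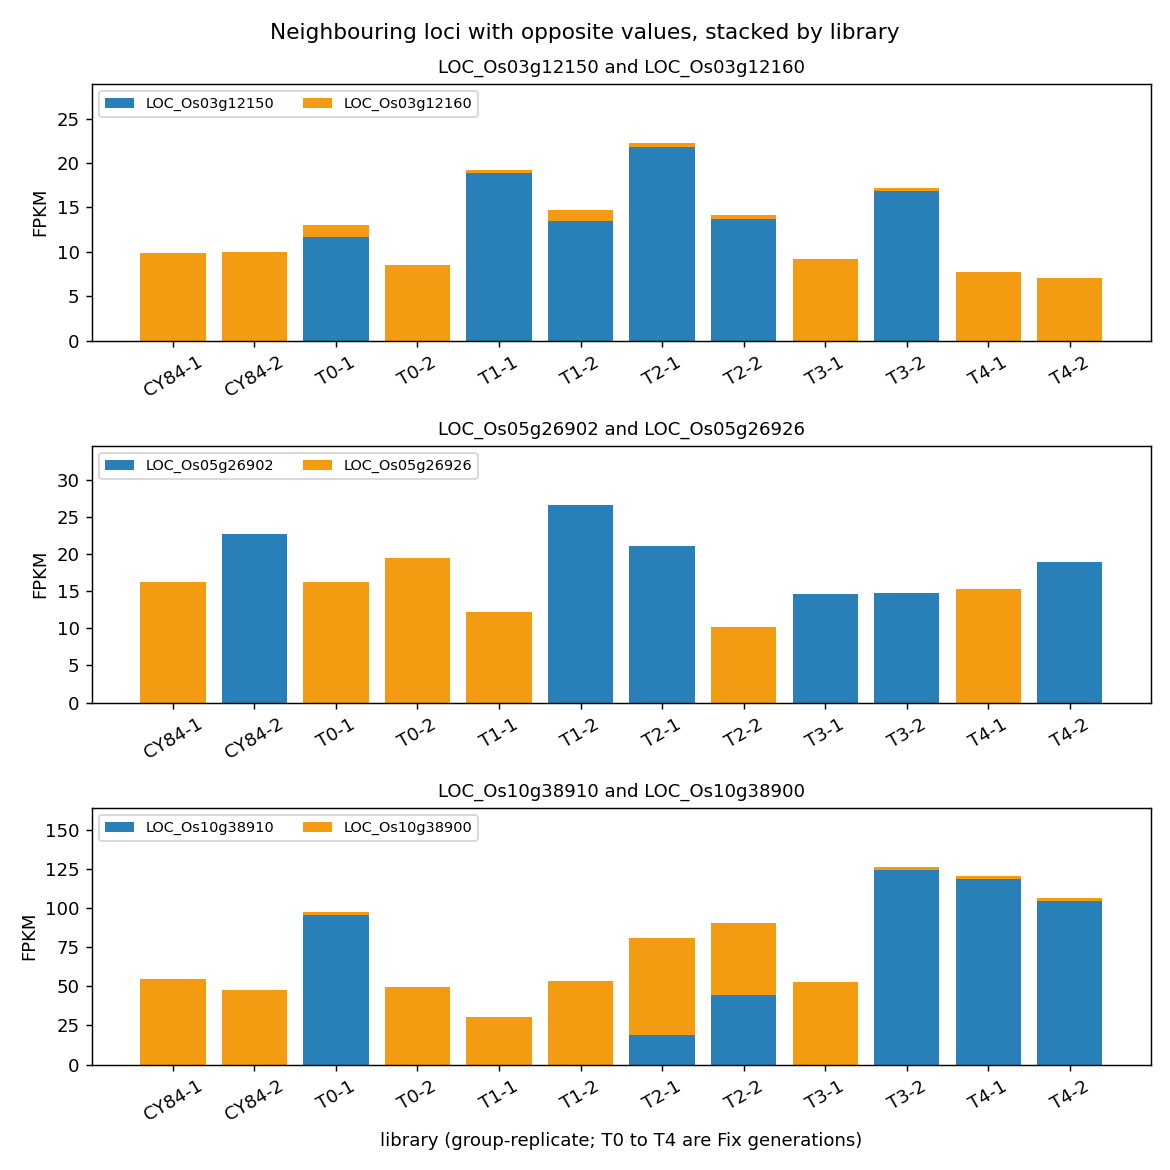
FPKM of 3 pairs of adjacent loci, stacked, with 1 bar per library. In the middle panel each library holds one colour alone, in the upper panel one colour makes up most of each bar, and in the lower panel only the Fix T2 libraries hold over 10 FPKM of both.

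An exact 0 can also stand beside steady high values. At 3 loci of the whole table, 11 libraries held at least 5 FPKM and the remaining one was listed at 0. One of the 3, LOC_Os06g08005, lies between LOC_Os06g07869 and LOC_Os06g08041, which are 16 listed loci apart on chromosome 6. It was listed at 0 in CY84 replicate 2 and had 11.1 to 21.1 FPKM in the other 11. For this reason the values listed at 0 are not read as absence of the transcript. At 17 of the 22 loci every library of every off group was listed at 0. Loci of the chromosome 6 stretch also ran in parallel. LOC_Os06g07905 had 14.9 FPKM in CY84 replicate 2, and 19.5 FPKM beside 21.1 FPKM of LOC_Os06g08005 in Fix T4 replicate 2. LOC_Os06g07932 and LOC_Os06g08032 had 3.59 and 4.61 FPKM in Fix T2 replicate 2, and 38.4 and 47.6 FPKM in Fix T4 replicate 2. LOC_Os06g07941 was above 0 in CY84 replicate 2 alone, at 3.39 FPKM. Whether fragments were divided there was not tested, so the call of LOC_Os06g08041 is uncertain too.

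The 22 loci lay on 9 of the 12 chromosomes. Chromosome 3 held 5, chromosome 6 held 4, chromosomes 5 and 7 held 3 each, chromosomes 9 and 10 held 2 each, and chromosomes 1, 11 and 12 held 1 each. No member lay on chromosomes 2, 4 or 8. Of the 11506 loci on in at least one group, chromosome 3 held 14.6%, chromosome 6 held 7.82%, chromosome 2 held 12.1%, chromosome 4 held 8.28% and chromosome 8 held 6.66%. With 22 loci such counts are too small to set chromosomes apart. The only members within 5 listed loci of each other were LOC_Os05g26902 and LOC_Os05g26926.

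The identifiers of the members, mainly of those with a split pair, differed in their last digit from those of other loci. The counts are small. MSU identifiers were first numbered in steps of 10, and loci added later received numbers in between. Of the 22 members, 7 had an identifier that does not end in 0, or 31.8%, against 7.26% of the loci on in at least one group and 6.33% of all listed loci. Among the 7 members with a split pair, 5 were of this kind. Among all 55 loci of the table with a split pair, 16 were, or 29.1%. The annotated structure of these loci was not examined.

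Several members lay near the limits. Just inside the on limit were LOC_Os06g12170, LOC_Os11g42200 and LOC_Os01g41420, whose lower library in their best group had 5.13, 5.20 and 5.28 FPKM, and just outside it were LOC_Os02g16940, LOC_Os01g05540 and LOC_Os06g40415 with 4.83, 4.79 and 4.51 FPKM. The off limit was less crowded. LOC_Os03g54130 lay inside it at 0.0819 FPKM for the higher library of its lowest group, and the other 21 members reached 0 in both libraries of at least one group. Just outside were LOC_Os09g02430, LOC_Os05g39540 and LOC_Os09g35020 at 0.126, 0.140 and 0.173 FPKM.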

How the data were processed

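The 12 RNA-seq libraries from rice flag leaves, 2 in each of 6 groups, were analysed, and 12 bisulfite samples were not analysed here. The authors deposited 1 table of FPKM per locus and library, per the file headers. The submitters' processing notes name Trimmomatic 0.39, HISAT2 2.1.0, StringTie 1.3.4d, featureCounts 1.6.4 and DESeq2 1.30.1, with no role for each, and the sources used here name no genome build. A further 20 unnamed columns, filled at 2 loci that are not members, were not used.

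The 22 members, the limits of 5 and 0.1 FPKM and all comparisons were chosen with earlier results of these data known. All members are named, including 4 of those off in CY84 that a rule naming the first 6 left out. Neighbours were taken in identifier order. Flanking loci were tested with limma 3.58.1 in R 4.3.3 on log2(FPKM + 1), with a mean per group over all 12 libraries, a trended prior and Benjamini-Hochberg adjustment over the 18871 loci with at least 1 FPKM in at least 2 libraries. The fit was tested on simulated data. Log2 differences on this scale understate the change of low loci. Replicate numbers did not pair libraries: the correlation of equally numbered libraries, after subtraction of group means, was over 0.1 in 2 of 15 pairs of groups.

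Alternatives were other limits, rescaling by median-of-ratios factors, group means, leaving out libraries or groups, a pseudocount of 0.1, no filter, a replicate block and 3 flanking loci on each side. The names of marker genes were paired with identifiers by hand from published nomenclature, which limits them.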

Additional observations from a re-analysis of the deposited data

How the results depend on the processing

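The set depended on its limits. The number of members was 22, and it was 12 with on at 10 FPKM, 72 with on at 2 FPKM, 49 with off below 0.5 FPKM, 43 with the mean of the libraries and 28 to 42 with one library left out. Rescaling left 17, all among the 22, off only at 0 left 21, and without Fix T1 and Fix T2 there were 18. All 22 were kept in every set with one library left out, but this was fixed by the rule. Leaving out a library, a looser limit or group means can add members and cannot remove any. Under all 19 settings 8 were kept. In the same order of settings (10 FPKM, 2 FPKM, below 0.5 FPKM, means), members on in CY84 and off in Fix were 8 and became 5, 14, 12 and 13, and 5 without Fix T1 and Fix T2, with 8 to 16 on leaving out a library. Members off in CY84 and on in Fix were 11 and became 4, 34, 28 and 19, and 7 on rescaling, with 11 to 30. Those on and off in Fix alone were 3 and became 3, 24, 9 and 11, with 0 to 18. Loci on in CY84, off in Fix T0 and on again in Fix T4 were 1, or 2 with on at 2 FPKM, off below 0.5 FPKM or means, and 1 to 7 on leaving out a library. The reverse were 1, or 3 with on at 2 FPKM and 2 with means, and 1 to 3. Loci with Fix T4 in the CY84 state were 3, or 8 with on at 2 FPKM, 5 with off below 0.5 FPKM and 9 with means, and 3 to 10 on leaving out a library. Those with Fix T4 in the opposite state were 8, or 2, 26, 22 and 15 in the order above, 4 on rescaling, and 8 to 22 on leaving out a library.

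Flanking loci passing in Fix T0 were 1, LOC_Os07g04450, and 0 with no filter and 0 to 1 without a library. In Fix T1 and Fix T3 they were 0 throughout. In Fix T2 they were 0, and 0 to 4 without a library (4 and 3 when the first or second library of Fix T1 was dropped, and 4 when the first one of Fix T2 was). In Fix T4 they were 0, 2 with 3 loci on each side (LOC_Os03g18740 and LOC_Os09g28354), and 1 with no filter (LOC_Os11g42170). With the replicate block the count was 1 in Fix T0 (limma adjusted p = 0.0149) and 0 elsewhere. Leaving out flanking loci that mirror a member, an alternative chosen after seeing the data, changed none of the 5 counts. Why the counts moved was not tested. With 2 libraries per group, small differences of flanking loci could not be resolved.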

Other observations

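With a lower limit, loci private to one group were found in CY84 and Fix T0 and in no seed generation. A locus counted here when both libraries of a group had at least 1 FPKM and the other 10 lay below 0.1 FPKM. There were 4 in Fix T0, 1 in CY84 and 0 in each of Fix T1 to Fix T4. The Fix T0 loci beside LOC_Os07g23510 were LOC_Os03g30740 with 2.95 and 3.74 FPKM, LOC_Os03g31390 with 1.74 and 2.69 FPKM and LOC_Os05g50390 with 5.45 and 2.68 FPKM. LOC_Os05g50390 was listed at 0 in the other 10 libraries, including those of the later Fix generations. Its identifier lies 2 listed loci before that of REC8, one of the edited genes, and a link to the edit was not tested. The reverse, below 0.1 FPKM in one group and at least 1 FPKM in the other 10 libraries, held at 2 loci in Fix T0 and 2 in CY84, and at 0 in Fix T1 to Fix T4. In Fix T0 these were LOC_Os07g04500 and LOC_Os01g05540, the latter listed at 0 in Fix T0 and between 1.42 and 5.07 FPKM elsewhere. In CY84 they were LOC_Os03g43100 and LOC_Os06g38480, the latter at 0.0519 and 0 FPKM in CY84 and between 1.35 and 5.56 FPKM elsewhere. LOC_Os01g12120 was the locus private to CY84, with 1.45 and 1.01 FPKM and 0 in all Fix libraries. These limits were chosen after the values had been seen, so no contrast between the groups is read from these counts.

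With the 3 nearest tested loci on each side, 2 of 48 flanking loci passed in Fix T4, both higher, where 1.88% of all tested loci passed and 317 of those 355 were higher. Of the 48, 22 had a higher and 26 a lower mean in Fix T4 on the log2 scale. LOC_Os03g18740, among the 3 nearest tested loci before LOC_Os03g18779, went from a mean of 1.58 FPKM in CY84 to 19.1 FPKM in Fix T4 (log2 difference 2.96, SE 0.59, limma adjusted p = 0.0241). LOC_Os09g28354, before LOC_Os09g28440, went from 3.03 to 13.8 FPKM (log2 difference 1.88, SE 0.39, limma adjusted p = 0.0287).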
